A study of Rattus norvegicus with 8 samples.

Results

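In urothelial carcinomas (UCs) of the rat bladder, 51 short CpG-dense stretches of the genome were methylated in one matching pair of tumours and nearly unmethylated in the other pair and in control bladders. They were 51 of 32980 CpG-dense tiles, a tile being 200 bp with at least 10 CpGs in each of the 8 samples. The methylation level of a tile was the percentage of C among all C and T calls of its CpGs. A tile was chosen where the control mean was under 5%, and where both UCs of one pair stood at 20% or more and both UCs of the other pair under 5%. The pairs were BT-1 with BT-2, and BT-4 with BT-5. The fifth UC, BT-3, played no part in the choice. Of the 28720 tiles with a control mean under 5%, 36 (0.125%) were private to BT-1 and BT-2, and 15 (0.0522%) were private to BT-4 and BT-5. In what follows, gained means at or above 20% in both UCs of a pair with a control mean under 5%, as a threshold and not as a test.

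The study profiled DNA methylation by reduced representation bisulfite sequencing (RRBS), in which restriction enzymes select CpG-rich fragments and bisulfite turns unmethylated C into T. The UC group was 5 bladder tumours, BT-1 to BT-5, of male F344/DuCrj rats that drank water with 200 ppm dimethylarsinic acid (DMAV), a methylated metabolite of arsenic, over 104 weeks from the age of 10 weeks. The control group was 3 samples, C1 to C3, labelled bladder urothelium, of rats of the same strain, starting age and duration at 0 ppm. The methods of the paper describe these controls as normal urinary bladders. The tumours were not examined by histology, and the paper takes them as UCs from their size. Rats found moribund were also taken, so some exposures may have been shorter. The sources used here do not say whether the 5 UCs came from 5 animals, whether any were taken from the same bladder, or what share of each sample was tumour cells, so the spread between samples may be partly technical. Methylation calls hold no expression markers against which the labelled tissue could be checked.

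CpG islands are stretches rich in CpG that lie at many gene starts and are unmethylated in most normal cells. In tumours some of them become methylated, and methylation of an island at a gene start is known to go with silencing of that gene. A methylation pattern is copied when a cell divides, so that the descendants of a cell tend to share it. In a bulk sample, a level of 30% can stand for methylation of 30% of the DNA copies or for partial methylation on every copy, and fewer methylated cells and less methylation per cell cannot be told apart.

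Depth differed little between samples. The samples held 51434938 to 73836223 calls at 2526077 to 2821347 CpGs, with a median of 14 to 18 reads per CpG. The median number of calls behind the level of a tile in a sample was 485 in the 36 tiles, 459.5 in the 15 tiles and 558 in all 28720.

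The likeness within each pair was seen across all 28720 tiles with a control mean under 5%, before any choice of private tiles. BT-1 had 769 tiles at 20% or more and BT-2 had 754, and 650 were common to both, which was 84.5% of those of BT-1 and 86.2% of those of BT-2. BT-4 had 376 such tiles and BT-5 had 356, and 283 were common, 75.3% and 79.5% of each. Tiles that were on in one UC and off in another were nearly absent within a pair and frequent across pairs. Only 2 tiles were at 20% or more in BT-1 and under 5% in BT-2, and 0 the other way round. Between BT-4 and BT-5 the numbers were 0 and 1. Between BT-1 and BT-4 they were 69 and 26, and between BT-2 and BT-5 they were 80 and 29. Because of this likeness, BT-1 and BT-2 are given below side by side and never as independent evidence of each other, and likewise BT-4 and BT-5.

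**Figure D1:**
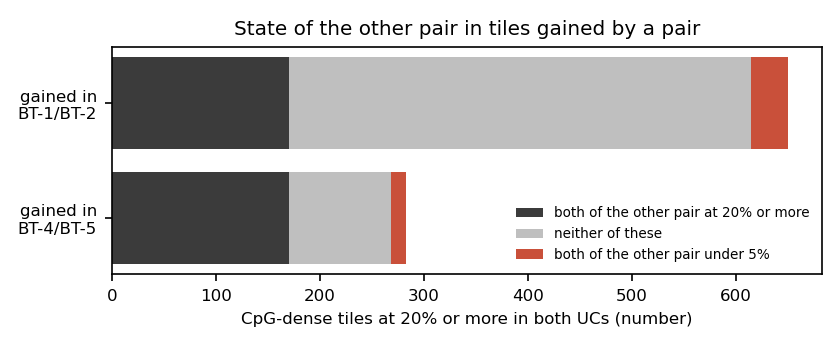
Number of tiles (x axis) at 20% or more in both UCs of a pair and with a control mean under 5%, for BT-1 and BT-2 (650) and for BT-4 and BT-5 (283). Bar segments give the state of the other pair: both at 20% or more (170 in each bar, dark), both under 5% (36 and 15, red), and the rest (444 and 98, light grey).

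Private tiles were a small share of what each pair gained. Of the 650 tiles gained in BT-1 and BT-2, 36 (5.54%) were under 5% in both BT-4 and BT-5, 170 (26.2%) were gained there too, and 444 (68.3%) were in between. Of the 283 tiles gained in BT-4 and BT-5, 15 (5.3%) were under 5% in both BT-1 and BT-2, 170 (60.1%) were gained there too, and 98 (34.6%) were in between. The pairs thus held 5.54% and 5.3% of their gained tiles privately, although BT-1 and BT-2 had gained more tiles, and no test of the shares was made.

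The starts of 4 genes show what such a stretch looks like. The start of a gene was located in the coordinates of the files, rn6, by the spacing of its CpGs. The lines below give the 250 bases before the start from RefSeq, build GRCr8, 5′ to 3′ along the gene's strand. Capitals mark the CpGs that were read in the files and lay inside a private tile. They are shown because, of all located starts, these had 10 or more such CpGs in the 250 bases, with Necab2 from the private tiles of BT-4 and BT-5 and the others from those of BT-1 and BT-2. In GRCr8 they lie at chr19:64409749-64409998 on the plus strand (Necab2), chr1:78001547-78001796 on the plus strand (Isoc2b), chr7:10439425-10439674 on the minus strand (Kiss1r) and chr8:19701053-19701302 on the minus strand (Amotl1).
Necab2: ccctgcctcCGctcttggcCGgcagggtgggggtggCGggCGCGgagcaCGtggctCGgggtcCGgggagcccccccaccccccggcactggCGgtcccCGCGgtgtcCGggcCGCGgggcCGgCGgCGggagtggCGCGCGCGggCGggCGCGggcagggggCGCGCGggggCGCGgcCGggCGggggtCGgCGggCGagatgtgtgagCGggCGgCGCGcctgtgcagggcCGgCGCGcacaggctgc
Isoc2b: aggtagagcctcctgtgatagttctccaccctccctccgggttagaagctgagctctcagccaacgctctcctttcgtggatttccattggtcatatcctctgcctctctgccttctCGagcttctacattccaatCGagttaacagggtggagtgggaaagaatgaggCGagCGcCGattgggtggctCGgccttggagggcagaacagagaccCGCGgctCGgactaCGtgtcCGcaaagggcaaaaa
Kiss1r: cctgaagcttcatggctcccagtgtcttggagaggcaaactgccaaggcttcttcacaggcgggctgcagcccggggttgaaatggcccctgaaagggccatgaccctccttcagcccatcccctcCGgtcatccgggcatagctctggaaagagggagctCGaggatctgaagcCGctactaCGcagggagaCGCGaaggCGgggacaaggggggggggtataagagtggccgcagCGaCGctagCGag
Amotl1: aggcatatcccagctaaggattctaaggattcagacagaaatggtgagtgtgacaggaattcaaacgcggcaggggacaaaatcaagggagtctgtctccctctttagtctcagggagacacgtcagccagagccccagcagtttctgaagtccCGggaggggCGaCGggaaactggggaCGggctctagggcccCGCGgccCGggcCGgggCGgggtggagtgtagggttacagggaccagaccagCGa

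The Necab2 sequence was the densest, with 42 CpGs in 250 bases, of which 41 were read in the files inside private tiles, and 85.6% G and C. The others held 13 to 14 CpGs and 56.0% to 62.8% G and C. The median over 33148 such sequences was 6 CpGs and 51.6% G and C. Only windows with at least 10 CpGs could be located, and those shown were picked for their CpGs. A CpG count above that median was thus set by the choice.

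**Figure D2:**
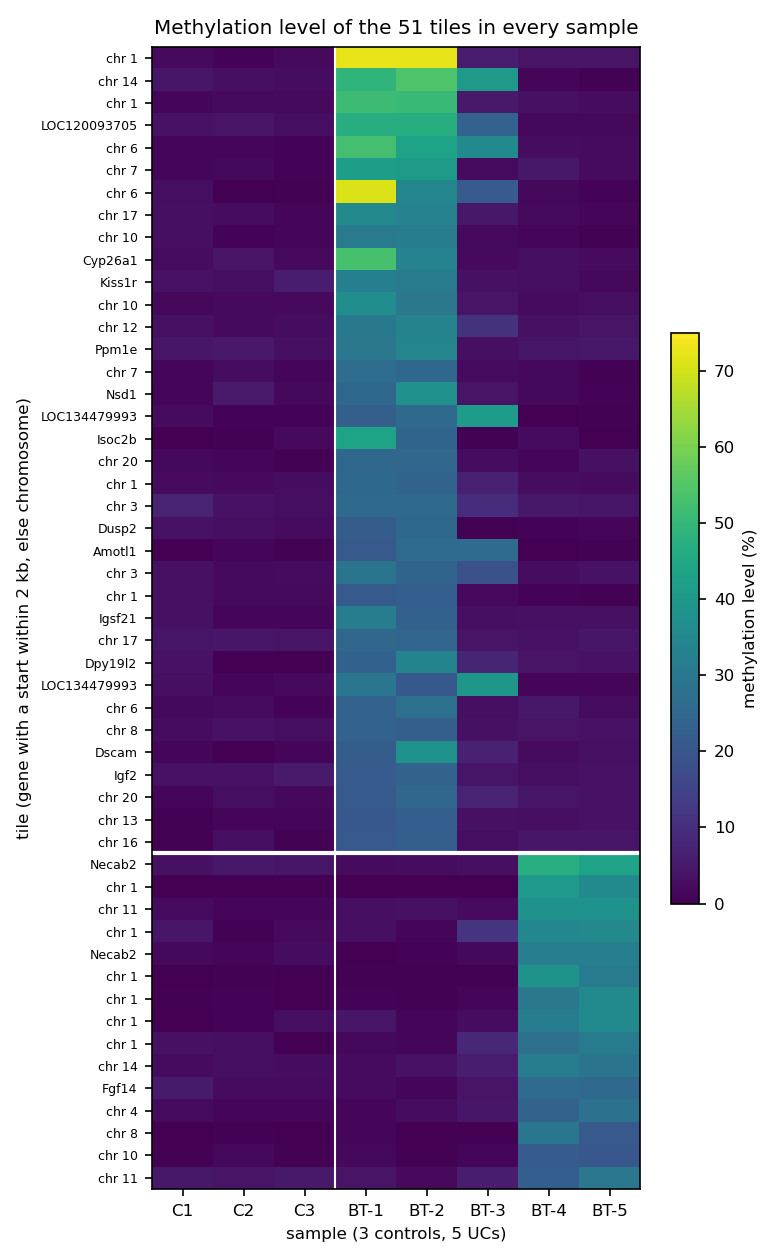
Methylation level (colour, in percent) of each of the 51 tiles (rows) in the 3 controls and 5 UCs (columns). The 36 tiles private to BT-1 and BT-2 are above the white line and the 15 private to BT-4 and BT-5 below it, each ordered by the gap between the pairs. The BT-3 column is dark in most rows and bright in 7 rows above the line.

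The strongest private methylation lay on chromosome 1 in BT-1 and BT-2, in 3 tiles between chr1:80431401 and chr1:80432200 of rn6. The nearest located gene start was that of Bloc1s3, which encodes a subunit of a complex for building lysosome-related organelles, and it was over 14 kb away (-14327 bases for the first tile). The tile chr1:80432001-80432200 was at 72.6% in BT-1 and 72.1% in BT-2. In BT-3 it was at 5.80%, in BT-4 at 3.92% and in BT-5 at 3.91%, and in C1, C2 and C3 at 1.93%, 0.823% and 1.77%. BT-1 and BT-2 thus stood 68.2 points above the higher level of the other pair, the widest gap of the 51 tiles, and no other sample came near them. The tile at chr1:80431601 was at 51.4% and 50.97% in BT-1 and BT-2, and that at chr1:80431401 at 21.1% and 22.4%, with BT-3 at 5.26% and 1.88%. Within the locus, the 35 CpGs that each sample covered with 5 reads or more had a median of 45.8% in the pair, from 6.0% to 91.2%, and a median of 2.33% in BT-4 and BT-5. The level therefore varied from CpG to CpG along the locus in the pair that carried it, while the mean of BT-4 and BT-5 was at most 8.18% at any of these CpGs, and the higher of them at most 15%.

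BT-3 shared some of the strongest tiles with BT-1 and BT-2. The tile chr14:81448001-81448200 was at 49.1% in BT-1, 54.2% in BT-2 and 40.3% in BT-3, against 1.19% in BT-4 and 0.296% in BT-5. Its control levels were 4.62%, 3.16% and 2.49%. The tile chr7:126460801-126461000, at -1457 bases from the start of LOC120093705, was at 46.7% and 46.8% in BT-1 and BT-2 and at 23.6% in BT-3. It was at 1.53% in BT-4 and 1.51% in BT-5, and its controls were at 3.66%, 3.83% and 2.65%. In both tiles BT-3 lay between BT-1 and BT-2 on one side and the other samples on the other.

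On chromosome 6, the tiles at chr6:27633801 and chr6:27634201 lay about 9 kb from the start of Garem2, an adaptor of growth factor receptor signalling (9175 and 8775 bases). The tile at chr6:27634201 was at 52.9% in BT-1, 43.6% in BT-2 and 35.6% in BT-3, and at 2.44% in BT-4 and 2.18% in BT-5. The tile at chr6:27633801 was at 71.0% in BT-1, 34.5% in BT-2 and 21.4% in BT-3. That difference of 36.5 points within the pair was the largest of the 36 tiles, and the tile rested on as few as 56 calls in a sample. The tile at chr7:28041601, far from any located start (673523 bases), was at 42.1% in BT-1 and 41.0% in BT-2 but at 2.22% in BT-3.

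Other tiles with wide gaps in BT-1 and BT-2 were at 35.4% and 33.2% (chr17:84813201) and at 31.2% and 31.5% (chr10:84151801), with BT-3 at 4.95% and 1.89%. At chr1:256381001, -1760 bases from the start of Cyp26a1, an enzyme that degrades retinoic acid, BT-1 was at 53.3% and BT-2 at 33.2%. BT-3 was at 2.04% there, and the other samples between 1.96% and 3.91%.

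Several tiles private to BT-1 and BT-2 lay at gene starts. For Kiss1r, the receptor of the peptide kisspeptin, the tile centre was at -33 bases from the start and the level was 32.4% in BT-1, 31.0% in BT-2, 3.25% in BT-3, 2.75% in BT-4 and 1.58% in BT-5. Its controls were at 3.61%, 2.74% and 5.74%. For Isoc2b, named for its isochorismatase domain, the tile at -68 bases was at 43.4% in BT-1 and 24.0% in BT-2, and at 0.418% in BT-3, the lowest BT-3 level of the 36 tiles. The tile at -224 bases from the start of Dusp2, a phosphatase that inactivates MAP kinases, was at 22.0% and 25.2% in BT-1 and BT-2, 0.550% in BT-3 and under 1% in BT-4 and BT-5. It did not reach the Dusp2 start, and at the 18 CpGs of the promoter window outside the tile the mean of BT-1 and BT-2 was at most 5.11%. At these 3 starts BT-3 lay at or under the highest control.

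For Dscam, a cell adhesion molecule of neurons, the tile at -35 bases was at 22.2% in BT-1 and 38.4% in BT-2, with BT-3 at 6.97%. For Dpy19l2, needed for forming the sperm head, the tile at 95 bases past the start was at 23.4% and 33.9%, with BT-3 at 7.63%. That tile rested on 65 calls in BT-2, and 0 of its CpGs had 10 reads or more in the 4 UCs. For Igsf21, an immunoglobulin superfamily member of synapses, the tile at 201 bases past the start was at 31.4% and 23.3%, with BT-3 at 3.12%. In the same 1-Mb window of chromosome 5, the share of all calls was 0.643 of the control mean in BT-1 and 0.53 in BT-2, against 0.993 in BT-4 and 0.936 in BT-5. The same share was 0.51 to 0.585 in BT-1 and BT-2 at the private tiles of chromosome 20, chr20:3094001 and chr20:7718401. The part of this lower coverage in the levels was not tested.

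At Amotl1 the level in BT-3 was at or above that in BT-1 and BT-2 in each private tile, but not at every CpG between and within them. Amotl1 encodes a member of the angiomotin family at cell junctions, and 3 private tiles lay at its start and that of the neighbouring LOC134479993. At chr8:13109001 BT-3 was at 41.2%, against 22.6% in BT-1 and 25.6% in BT-2. At chr8:13109201 BT-3 was at 39.6%, against 29.5% and 20.5%. At chr8:13109601, -5 bases from the Amotl1 start, BT-3 was at 26.4%, BT-1 at 21.04% and BT-2 at 26.3%, the last within the 95% Wilson interval of BT-3, 21.9% to 31.4%. In these 3 tiles BT-4 and BT-5 were between 0.0% and 1.32%, and the controls between 0.0% and 3.07%. The tile between them, chr8:13109401, was not private, with BT-1 at 25.8%, BT-2 at 4.95% and BT-3 at 9.52%. From the first private tile to the last, that tile included, the locus held 65 CpGs covered to this depth, and their median was 20.8% in BT-1 and BT-2, 28.6% in BT-3 and 0.0% in BT-4 and BT-5. BT-3 was above the mean of BT-1 and BT-2 at 42 of the 65 and below it at 23.

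Of the 3 further tiles within 2 kb of a start, that at 957 bases from Ppm1e, a protein phosphatase, was at 29.8% and 34.1% in BT-1 and BT-2. That at -898 bases from Nsd1, a histone H3 methyltransferase, was at 25% and 37.8%. That at 1108 bases from Igf2, the imprinted growth factor, was at 21.5% and 23.8%. Their BT-3 levels were 3.08%, 3.93% and 4.25%, which was within the control range of the tile in each case. The Igf2 tile rested on 79 calls in BT-1. Only 1 of its CpGs had 10 reads or more in the 4 UCs. That CpG was at 5.32% in BT-1 and BT-2, which were not both above BT-4 and BT-5 there.

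In BT-4 and BT-5 the widest gap was at Necab2, a calcium-binding protein of neurons. The tile chr19:52086201-52086400, whose centre is at -24 bases from the start, was at 47.2% in BT-4 and 43.4% in BT-5. In BT-1, BT-2 and BT-3 it was at 2.29%, 2.63% and 3.21%, and in the controls at 3.23%, 4.69% and 4.25%. The tile just upstream, at -224 bases, was at 32.2% and 32.3% in BT-4 and BT-5, at 1.52% in BT-3 and at or under 2.35% in every other sample. Across both tiles, 53 CpGs had this depth, with a median of 39.6% in BT-4 and BT-5 and 0.0% in BT-1 and BT-2. The Necab2 sequence above covers part of this locus, and its capitals mark the CpGs read there at any depth. The low pair was not at 0 throughout, since its mean reached 25.65% at a CpG in the locus.

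The cleanest contrast lay on chromosome 1, in 3 tiles between chr1:147021401 and chr1:147022400 with no located start within 300 kb (361879 bases to Ctxnd1). At chr1:147022201 BT-4 was at 40.4% and BT-5 at 35.5%, and the other 6 samples were at 0.0%. At chr1:147021401 the levels were 38.4% and 31.2%, against 0.168% to 0.566% in the other 6 samples. At chr1:147021601 they were 29.7% and 35.7%, against 0.144% to 0.930%. No other sample reached 1% in any of the 3 tiles. The 39 CpGs of this depth ranged from 8.45% to 50.7% in BT-4 and BT-5, as the mean of the pair, and the mean of BT-1 and BT-2 was at most 3.67% at any of them.

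**Figure D3:**
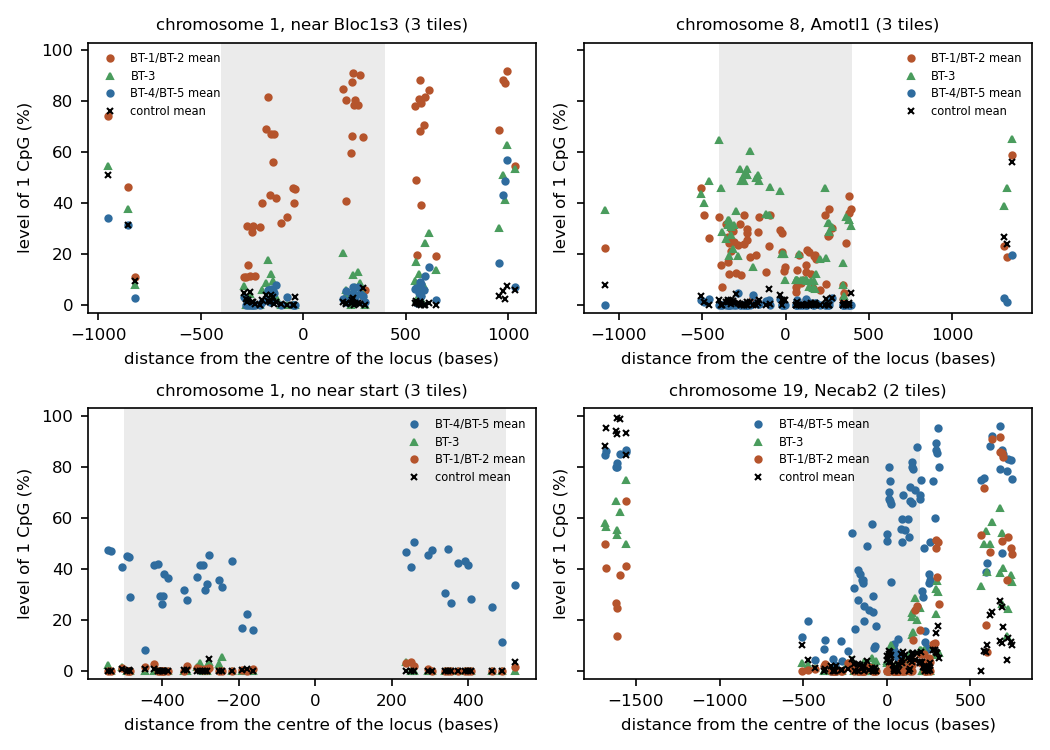
Level of single CpGs (y axis, percent) against the distance from the centre of the locus (x axis, bases) at 4 loci, for the mean of each pair, BT-3 and the control mean; grey marks the extent of the private tiles, and CpGs covered by under 5 reads in a sample are left out. The pair that carries the locus stands above the rest inside the grey band, and at Amotl1 the BT-3 points lie above those of BT-1 and BT-2 at 42 of 65 CpGs and below them at 23.

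Other tiles private to BT-4 and BT-5 lay apart from each other on several chromosomes. At chr11:66245401 BT-4 was at 38.3% and BT-5 at 38.4%, with the other samples at 0.906% to 3.46%. In its 1-Mb window the share of all calls was 3.99 and 3.84 times the control mean in BT-4 and BT-5, against 1.02 in BT-1 and 1.11 in BT-2, and the part of this higher coverage in the level was not tested. The 2 tiles at chr1:173682001 and chr1:173682201 were at 35.1% and 27.5% in BT-4 and at 35.2% and 30.8% in BT-5. They had the highest BT-3 levels of the 15 tiles, 11.4% and 8.43%. The tile 119 bases from a start of Fgf14, which modulates sodium channels of neurons, was at 26.3% and 25.7%, with BT-3 at 3.88% and C1, at 5.42%, the highest control. The tile 5298 bases from Atoh1, a factor that specifies neurons and secretory cells, was at 23.8% and 27.9%. At chr8:69466801 BT-4 was at 29.4% and BT-5 at 20.9%, and BT-3 was at 0.0%. At chr11:39195801 BT-4 was at 22.3% and BT-5 at 29.7%, and BT-3 was at 6.12%, above the controls at 4.97%, 3.87% and 5.07%.

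The fifth UC, which had no part in the choice, carried some of the private tiles of BT-1 and BT-2 at 20% or more. It carried none of those of BT-4 and BT-5. Over all gained tiles the order depended on which set the share was taken of. Over the 36 tiles of BT-1 and BT-2, the BT-3 level had a median of 4.12% and ran from 0.418% to 41.2%. It was at 20% or more in 7 tiles (19.4%), under 5% in 20 and in between in 9. Over the 15 tiles of BT-4 and BT-5 its median was 2.44%, from 0.0% to 11.4%, and it was at 20% or more in 0 tiles and under 5% in 11. Over the 170 tiles gained in all 4 of the other UCs its median was 15.9% and 50 (29.4%) were at 20% or more. Of the 650 tiles gained in BT-1 and BT-2, private or not, 83 (12.8%) were at 20% or more in BT-3. Of the 283 gained in BT-4 and BT-5, 59 (20.8%) were. Both of these sets include the 170, which were 26.2% of the 650 and 60.1% of the 283, so the 2 shares are not a like comparison. Of the 110 tiles at 20% or more in BT-3, 84 and 86 were so in BT-1 and BT-2 (76.4% and 78.2%). In BT-4 and BT-5, 62 and 68 of the 110 were (56.4% and 61.8%). BT-1 and BT-2 also had more such tiles in all. These counts do not place BT-3 with either pair. Among all 28720 tiles with a control mean under 5%, 0.383% were at 20% or more in BT-3. The 7 tiles were those of chromosomes 6 (2 tiles), 7, 8 (3 tiles) and 14 described above, at 4 loci. BT-3 had few tiles at 20% or more in all, 110 against 356 to 769 in the other UCs. As BT-3 is 1 sample, no test of these differences could be made.

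**Figure D4:**
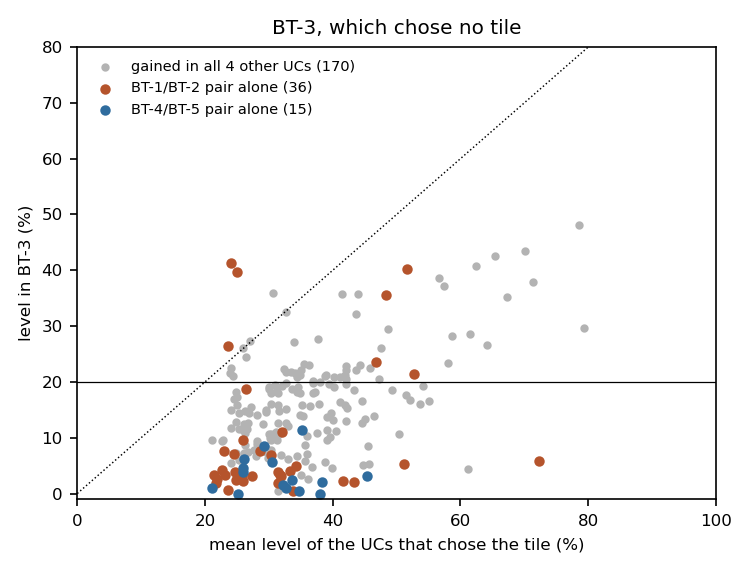
Level in BT-3 (y axis, percent) against the mean level of the UCs that chose the tile (x axis, percent), for the 36 tiles of BT-1 and BT-2, the 15 of BT-4 and BT-5, and the 170 gained in all 4 of these UCs (grey, mean of the 4). The solid line is 20% and the dotted line is equality; 7 tiles of BT-1 and BT-2 lie above the solid line and no tile of BT-4 and BT-5 does.

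Lower degrees of methylation were also counted in BT-3 against the controls. BT-3 was above all 3 controls in 22 of the 36 tiles and in 7 of the 15, while 40.6% of all 28720 tiles met this. Its lower 95% Wilson bound was above the highest control's upper bound in 13 of 36 and 1 of 15, and in 6.57% of all 28720 tiles. These intervals cover counting error only.

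Within a pair, the levels of most private tiles were close, but the choice itself required both UCs of the pair to be high. The closeness was not particular to private tiles. Over all tiles, private or not, that reached the high limit in either UC, the median difference was similar. It was 3.579 points over 873 tiles for BT-1 and BT-2, and 3.396 points over 449 tiles for BT-4 and BT-5. In the 36 tiles the levels of BT-1 and BT-2 differed by a median of 3.06 points, their 95% Wilson intervals overlapped in 29, and BT-1 was the higher in 18. In the 15 tiles BT-4 and BT-5 differed by a median of 3.76 points and at most 8.42, and their intervals overlapped in 12. The median level was 27.8% in BT-1, 27.0% in BT-2, 31.4% in BT-4 and 31.2% in BT-5. Most levels were far from full: the pair mean was 40% or more in 8 of the 36 tiles and 1 of the 15. The median control levels were 2.56%, 1.96% and 1.82% in the 36 tiles and 2.09%, 1.32% and 1.30% in the 15, in the order C1, C2, C3.

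To read the pattern in UCs that had not chosen the tiles, tiles were chosen on 1 UC of each pair and measured in the others. Where BT-1 was at 20% or more and BT-4 under 5%, 69 tiles were found. In them BT-2 had a median of 24.1% and was at 20% or more in 49 (71.0%), BT-5 had a median of 3.49%, and BT-2 was above BT-5 in 69 of 69. Where BT-4 was high and BT-1 low, 26 tiles were found, with a median of 26.8% in BT-5 and 1.62% in BT-2, and BT-5 was above BT-2 in 26 of 26. With BT-2 and BT-5 as the choosers there were 80 and 29 tiles, and the same order held in 80 of 80 and 28 of 29. Since the pairs were themselves seen in these data, this describes how fully a pair shares its tiles and is not independent support of the pairing.

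**Figure D5:**
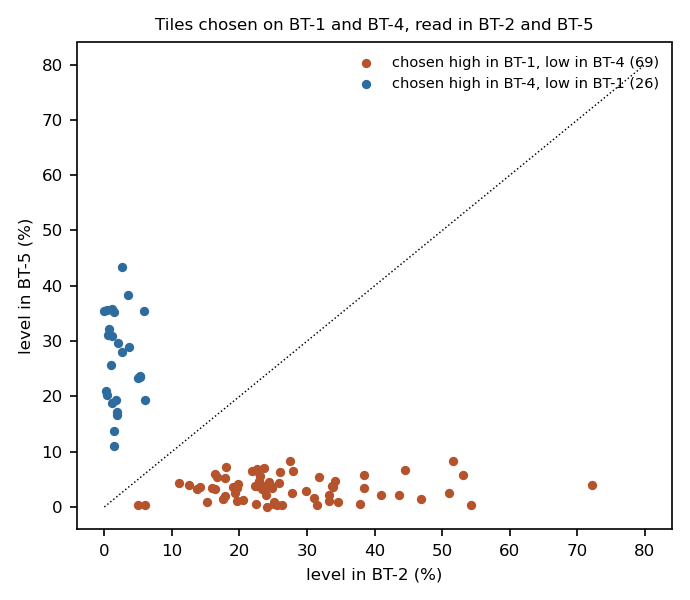
Levels in BT-2 (x axis, percent) and BT-5 (y axis, percent) of the 69 tiles chosen as high in BT-1 and low in BT-4, and of the 26 chosen as high in BT-4 and low in BT-1. Each point is a tile and the dotted line is equality; all 69 points lie below it and all 26 above it.

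The methylation did not stop at the border of the tiles. Of 45 tiles directly beside the 36, 39 had a control mean under 5%, and BT-1 and BT-2 were both above BT-4 and BT-5 in 34 of these 39. The median of the 39 was 20.7% in BT-1 and BT-2 and 3.53% in BT-4 and BT-5. Of 11 tiles beside the 15, 9 had a control mean under 5%, with BT-4 and BT-5 above in 9 of 9 and medians of 19.6% and 1.99%. Within 2 kb, 22 of 122 and 3 of 21 neighbours with a low control mean were gained in the high pair, but only 1 and 0 were gained in all 4 UCs. Neighbours here are tiles of at least 3 CpGs in each sample. No share over all such tiles is given for comparison, and BT-1 and BT-2 gained more tiles in all (650 against 283). The 51 tiles formed 31 loci and 11 loci, counting tiles with starts within 1000 bases as a locus, and 28 and 8 of these were a tile on its own.

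Single CpGs inside the tiles mostly followed the tile. Their calls are the ones that chose the tiles, so the order of the pairs is largely set by the choice. The counts describe how a level is spread and are not support for it. Of 409 CpGs with at least 10 reads in the 4 UCs, in 34 of the 36 tiles, both of BT-1 and BT-2 were above both of BT-4 and BT-5 at 353 (86.3%). In the 15 tiles the reverse held at 176 of 185 CpGs (95.1%). Every measured CpG had that order in 12 of the 34 tiles and in 10 of the 15. Both UCs of the pair were at 10% or more at 295 (72.1%) and 153 (82.7%) of the CpGs. Pooled over the tiles, most CpGs thus held part of the level, but in several tiles of BT-1 and BT-2 few CpGs did. Among CpGs with 5 reads or more in each sample, the median at chr1:100338601 was 3.39% and the highest 87.3%. At chr20:7718401 the median CpG was at 4.67% and the highest at 85.6%, and at chr20:3094001 they were at 7.97% and 76.8%.

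The private tiles held fewer CpGs and were less often near a located gene start, by their medians and counts, than all tiles with a control mean under 5%. The number of CpGs of a tile, in the sample where most were read, had a median of 14.5 in the 36 tiles and 13.0 in the 15, against 17.0 in all 28720 and in the 170 gained in all 4. Within 500 bases either side, the files held a median of 50.5, 29.0, 57.0 and 55.5 CpGs, in that order. A located gene start within 1 kb was found for 11 (30.6%) and 3 (20%) of the tiles, against 54.1% of all 28720 and 39.4% of the 170. The sets also differed in the controls: the median control mean was 1.87% and 1.57%, against 0.424% in all 28720 and 2.90% in the 170. The comparisons were not matched for this. Chromosome 1 held 7 and 6 of the tiles, with 11.7% of the 28720, and chromosomes 2, 9 and 18 held none. These are counts over few tiles and no test was made.

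Private tiles near gene starts were few. Of 6602 genes with a located start and a tile of low control mean within 1 kb, 12 (0.182%) had a private tile and 49 (0.742%) had a tile gained in all 4 UCs. The 12 were Amotl1, Dpy19l2, Dscam, Dusp2, Igsf21, Isoc2b, Kiss1r, LOC134479993, Nsd1 and Ppm1e for BT-1 and BT-2, and Fgf14 and Necab2 for BT-4 and BT-5. None of 58 homeobox, T-box and related developmental factors had a private tile, and 3 (5.17%) had a tile gained in all 4. None of 30 potassium and calcium channel genes had one, and 2 (6.67%) had a tile gained in all 4. The other lists were too thinly covered to describe, with 7 cadherin and adhesion genes, 3 Wnt antagonists, 2 tumour suppressors, 2 imprinted genes and 1 urothelial gene, and held neither kind of tile within 1 kb. At a share of 0.182% over all genes, lists of this size would hold hardly any private tile, so their zeros are not a result about these genes. The imprinted gene Igf2 had its private tile just past 1 kb, at 1108 bases. The study listed promoter regions that it reported as highly methylated in each of the 5 UCs relative to the 3 normal bladders. Of the 36 tiles, 2 lay within 2 kb of such a region, at Vstm4 (chr16:9092401) and at Igf2 (chr1:215837001), and 0 of the 15 did. No share over all tiles is given for comparison. The Vstm4 tile overlapped its listed region, yet BT-3 was at 2.66%, BT-4 at 4.53% and BT-5 at 4.62% there. Its controls were at 0.449%, 2.67% and 0.343%. These levels are of the tile and not of the whole listed region.

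The comparison of the 5 UCs with the 3 controls did not call these tiles. The quasi-binomial test with Benjamini-Hochberg adjustment, which called 9.29% of 257611 tiles higher in UCs and 5.36% of the 33569 CpG-dense ones with chromosome X included, called 0 of the 51. An unadjusted p under 0.05 by this quasi-binomial test was found for 20, and the share over all tiles is not given. The smallest adjusted p by this test was 0.0691. Using limma on M values 3 were called, against 7.43% of all tiles and 5.21% of the CpG-dense ones. The choice of tiles used these same levels and held 2 UCs under 5% in each tile, so nothing is read from these counts. The median difference of the group means over the 51 was 11.9 points.

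The limits of 20% and 5% fell within a continuum. The private tiles nearest above 20% in BT-1 and BT-2 had their lower level at 20.5% (chr13:25778401 and chr8:13109201) and 20.96% (chr16:9092401). Those nearest below were at 19.8% (chr20:33077201 and chr8:30479801) and 19.7% (chr12:5978001). For BT-4 and BT-5 they were 20.3%, 20.9% and 22.3% inside (chr10:51779201, chr8:69466801 and chr11:39195801), and 19.8%, 19.7% and 19.3% outside (chr17:8873201, chr1:31124401 and chr8:69593201). At the limit of 5%, the tile chr3:107757801 was left out with BT-1 at 60.5%, BT-2 at 64.7%, BT-5 at 3.53% and BT-4 at 5.04%. The tile chr15:103440001 was left out with BT-1 at 43.4%, BT-2 at 45.1% and BT-4 at 5.02%.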

How the data were processed

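DNA methylation was measured by RRBS in 5 UCs and 3 controls, grouped by the treatment in the sample labels. The authors trimmed the 75-base reads, mapped them with RRBSMAP (rn6), discarded reads of more than 1 location and dropped barcode duplicates. The deposited files give counts of C calls and of C and T calls per CpG, both strands combined, from 3 reads up. They also hold an effective count that the authors corrected for base variants, an expected count used only as an alternative. The members and lists were chosen with earlier results of these data known.

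Calls were summed over 200-bp tiles, and intervals are 95% Wilson intervals of counting error. UCs and controls were compared by a quasi-binomial F-test with dispersion moderated by limma 3.58.1 in R 4.3.3 over 257611 tiles of at least 3 CpGs, and called at an adjusted p under 0.05 and over 10 points. The test was checked on simulated calls. The p-values set the difference of the groups against the spread between these samples. The test took each UC as an independent sample. The UCs within each pair were alike, and whether any came from the same bladder is not known. If the UCs of a pair are not independent, the p-values may be too small and the shares called too high.

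No genome or annotation of rn6 was used here. The 300-base promoter windows of RefSeq (build GRCr8) were located in rn6 by matching the spacing of their CpGs with the CpGs of the files on the same chromosome. Of 33148 windows, 13872 had at least 10 CpGs and 8185 were located, of which 381 were in the other orientation, that of Fgf14 among them. As a check, 4 were located on a wrong chromosome, and 137 of 140 listed genes fell within 1000 bases of their listed region. Starts with few CpGs are missing, so the nearest located start need not be the nearest gene.

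Named tiles are, for each kind, those with the 6 widest gaps, the 3 nearest on either side of 20%, the 3 loci with most tiles, the 3 highest and 3 lowest in BT-3, and those within 2 kb of a listed region. Tiles at other gene starts, those at the limit of 5% and those at chr17:84813201, chr10:84151801 and chr8:13109401 were chosen after their values were seen. So were those at chr4:95503201 (near Atoh1), chr1:100338601, chr20:3094001 and chr20:7718401. The gene lists had been set for use with an rn6 annotation and were read with the located starts instead.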

Additional observations from a re-analysis of the deposited data

How the results depend on the processing

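With the limit for the control mean and the low pair at 10%, 173 tiles were private to BT-1 and BT-2 and 49 to BT-4 and BT-5, and the BT-3 median in the latter was 6.115%. With the high pair at 30% or more the numbers were 12 and 7, and at 10% or more 224 and 144. With at least 5 CpGs per tile they were 102 and 50, and with at least 15 CpGs 14 and 6. These limits define the set, so the number of private tiles is a number at the stated limits. With a sample left out in turn the numbers ran from 35 to 57 and from 14 to 22, the highest of the former without BT-4 (57) and without BT-1 (55). The other alternatives kept the numbers within 1.5 times: at least 10 reads per CpG, the mean of CpG levels, the effective count, tiles shifted by 100 bp, and CpGs common to all samples. BT-1 and BT-2 had more private tiles than BT-4 and BT-5 under each of these limits.

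The UC to control test called 0 of the 51 tiles, 3 with limma on M values, and 0 to 6 with a sample left out, 6 without BT-5 and 1 each without BT-1, BT-3 and BT-4. With the replicate block it called 20. This block drops BT-4 and BT-5, whose numbers no control has, and the labels give no pairing: the correlations of same-numbered samples were 0.015, -0.013 and 0.041. The cause was not tested for the other changes. Depth limits tiles such as chr6:27633801, with 56 calls in a sample, and those at Dpy19l2 (65 calls) and Igf2 (79 calls).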
